A study of Mus musculus with 8 samples.

Results

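The genes described here encode the collagens and linking proteins of the basement membrane. They are the type IV collagen chains Col4a1, Col4a2, Col4a5 and Col4a6, the multiplexin collagens Col15a1 and Col18a1, the nidogens Nid1 and Nid2, and the heparan sulfate proteoglycans perlecan (Hspg2) and agrin (Agrn). These 10 genes were taken by name, for the protein each one encodes, out of the 55276 genes listed in every expression table. The rule uses no measured value, but the list was chosen with earlier results of these data known. All 10 genes passed the filter on low values in each comparison.

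The basement membrane is a thin sheet of extracellular matrix that wraps each muscle fibre, capillary and peripheral nerve. Laminins and type IV collagen form separate networks in it, nidogens and perlecan connect these networks, and collagens XV and XVIII lie where the sheet meets the fibrous interstitial matrix. Fibro-adipogenic progenitors (FAPs), the mesenchymal cells between muscle fibres, are a known source of these proteins in regenerating muscle.

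FAPs were sorted from injured tibialis anterior muscle of mice at 3 and 7 days post-injury (dpi), and their polyadenylated RNA was sequenced in 4 groups of 2 libraries. Control mice (Ctrl) were Osr1 flox/+ and Osr1cKO mice were Osr1 flox/flox, and both carried CAGG Cre+. Osr1 is a zinc finger transcription factor expressed in FAPs, and the comparison of genotypes asked what its loss changes in these cells after injury. All mice were 4 to 6 months old, had the muscle pierced with a frozen needle and received tamoxifen from the day of injury, so the controls too had lost 1 copy of Osr1. CAGG drives Cre in all cell types, and recombination was therefore not limited to FAPs. Cells of both genotypes were sorted for the GFP that the recombined allele produces. A library held the cells of 1 mouse at 3 dpi and of 4 pooled mice at 7 dpi.

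Values are TPM, transcript abundances that the authors scaled to gene length and to the total of each library, so levels can be set side by side between genes. The libraries corresponded to 36517340 to 51097927 fragments. Osr1 itself was at 105 and 91.0 TPM in the 3 dpi controls against 70.7 and 71.9 TPM in Osr1cKO, and at 67.6 and 71.6 TPM against 64.4 and 60.8 TPM at 7 dpi. The tables hold 1 value per gene and not per exon, so these levels do not test the deletion itself. FAP marker genes summed to between 30778 and 62119 TPM in every library, and Col1a1 and Col3a1 made up most of each sum. Of the FAP list Ly6a, which encodes Sca-1, was at 5407 and 4232 TPM in 3 dpi controls. It was at 3058 and 2020 TPM in Osr1cKO at 3 dpi and overlapped between genotypes at 7 dpi. The endothelial markers Pecam1 and Cdh5 did not exceed 6.25 TPM in any library. Of the same 12-gene endothelial list Tek lay between 14.9 and 58.4 TPM, and Kdr was at 16.8 TPM in 3 dpi control replicate 1 and at most 2.25 TPM elsewhere. Sex-linked genes differed between libraries. At 3 dpi Xist, which female cells express, lay between 33.9 and 52.9 TPM and the Y-linked gene Ddx3y was listed at 0 in all 4 libraries. At 7 dpi Xist was at 12.4 and 0.025 TPM in controls against 109.9 and 102.6 TPM in Osr1cKO, and Ddx3y was at 47.5 and 48.6 TPM against 10.5 and 2.22 TPM. The sex of the pooled mice thus went with genotype at 7 dpi, where sex and genotype cannot be told apart, and Ddx3y was above 0 at the later day alone.

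Col4a1 and Col4a2 encode the α1 and α2 chains of the collagen IV trimer found in every basement membrane. In mm10 (GRCm38) Col4a1 occupies chr8:11198423-11312826 on the minus strand and Col4a2 chr8:11312805-11449287 on the plus strand. Their starts are 21 bp apart, and each lies inside the other gene. Their exons therefore overlap by 22 bp on opposite strands, and beyond this overlap the genes are read away from each other. Their promoter windows, from 250 bases before to 50 bases after each start, are shown because these were the members whose levels moved most closely together. The windows are RefSeq sequence of GRCm38.p6, chr8:11312777-11313076 (minus strand) for Col4a1 and chr8:11312555-11312854 (plus strand) for Col4a2, and the capitals mark the 78 bases that both windows hold, on opposite strands.
Col4a1: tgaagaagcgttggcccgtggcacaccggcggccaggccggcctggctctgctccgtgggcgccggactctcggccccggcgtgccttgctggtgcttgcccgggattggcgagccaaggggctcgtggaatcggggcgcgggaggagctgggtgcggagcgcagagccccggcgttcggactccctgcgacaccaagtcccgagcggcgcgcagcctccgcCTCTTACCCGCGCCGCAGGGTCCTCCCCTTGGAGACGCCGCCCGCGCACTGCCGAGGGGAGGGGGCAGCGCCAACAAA
Col4a2: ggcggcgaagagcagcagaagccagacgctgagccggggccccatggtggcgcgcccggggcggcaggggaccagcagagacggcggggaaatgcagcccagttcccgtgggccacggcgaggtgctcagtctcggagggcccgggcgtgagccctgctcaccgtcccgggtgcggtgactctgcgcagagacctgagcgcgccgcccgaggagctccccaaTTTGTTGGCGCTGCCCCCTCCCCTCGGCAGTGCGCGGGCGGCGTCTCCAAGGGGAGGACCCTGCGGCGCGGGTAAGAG
The windows were 74.0% and 73.7% G and C, against a median of 52.7% over the 27025 promoter windows of the reference. Searched on both strands, the GC box letters GGGCGG occurred 1 time in the Col4a1 window and 3 times in the Col4a2 window, and 1 of these matches lay in the shared stretch. They were also present in 35.9% of all windows. CCAAT occurred 1 time in each of the windows, in neither case wholly inside the shared stretch, and in 37.9% of all windows. TATAAA occurred in neither and in 14.2% of all windows. A window was found for 9 of the 10 members, with none for Nid2.

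The 2 genes kept nearly the same ratio in every library. The Col4a1 level divided by the Col4a2 level was 1.41 and 1.40 in the 3 dpi controls, 1.37 and 1.34 in Osr1cKO at 3 dpi, 1.43 and 1.38 in the 7 dpi controls and 1.40 and 1.40 in Osr1cKO at 7 dpi. No other pair of related members did so, and the plot of ratios shows Nid1 over Nid2 and Col18a1 over Col15a1 beside it. Nid1 over Nid2 ranged from 1.65 to 7.02, Col18a1 over Col15a1 from 0.363 to 1.81, and Col4a5 over Col4a6 from 20.8 to 59.0. Hspg2 over Agrn ranged from 6.88 to 33.1 over the 8 libraries, and from 13.5 to 14.1 at 7 dpi. Of 8425 genes with a mean level of at least 10 TPM, Col4a2 had the pattern over the 8 libraries most like that of Col4a1. Likeness here is the root mean square difference of log2 levels after each gene was centred on its own mean, and it was 0.03 for Col4a2. The next were Fnbp1 at 0.08, Wwc2 at 0.08, Tmem219 at 0.09 and the laminin γ1 chain gene Lamc1 at 0.09. Hspg2 was ranked 816 by this measure, and the other members with a mean of at least 10 TPM were ranked between 4348 (Col4a5) and 8087 (Col15a1).

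**Figure D1:**
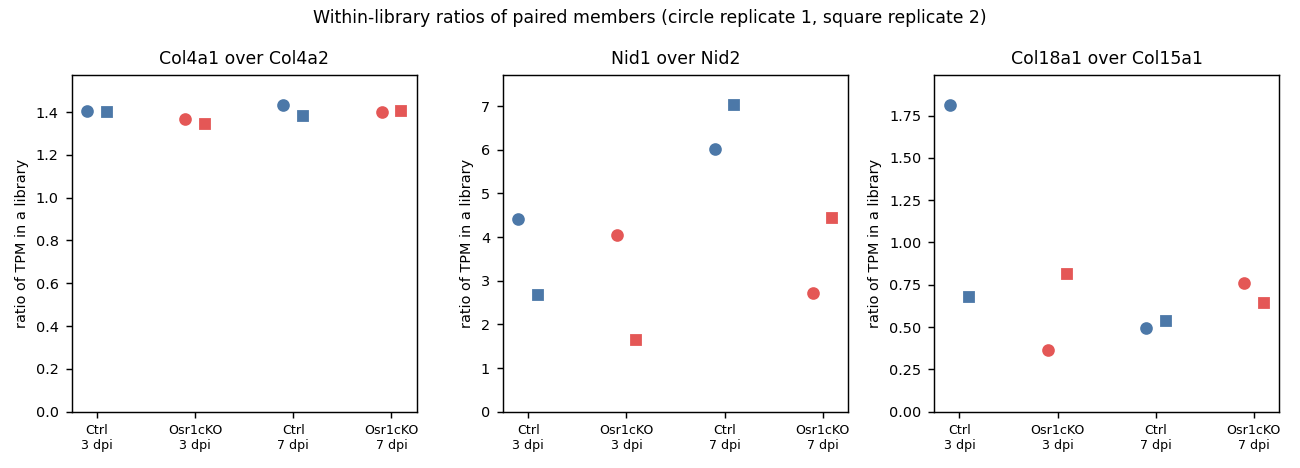
Ratio of the TPM of related members within each library, on linear axes from 0, for controls (blue) and Osr1cKO (red) at 3 and 7 dpi, 1 point per library. Col4a1 over Col4a2 stayed between 1.34 and 1.43, while Nid1 over Nid2 ran from 1.65 to 7.02 and Col18a1 over Col15a1 from 0.363 to 1.81.

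The members spanned more than 3 orders of magnitude in level. Together they summed to between 3564 and 4912 TPM, and Col4a1, Col4a2, Nid1 and Hspg2 made up 78.5% to 89.3% of that sum. Col4a6 stood at the other end, with 0.209 to 0.715 TPM from 16 to 71 fragments per library, so its values carry the largest counting error. Between the top and the bottom lay Col15a1, Nid2, Col18a1, Agrn and Col4a5, with group means from 9.53 TPM for Col4a5 in Osr1cKO at 3 dpi to 372.0 TPM for Col15a1 in the 7 dpi controls.

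**Figure D2:**
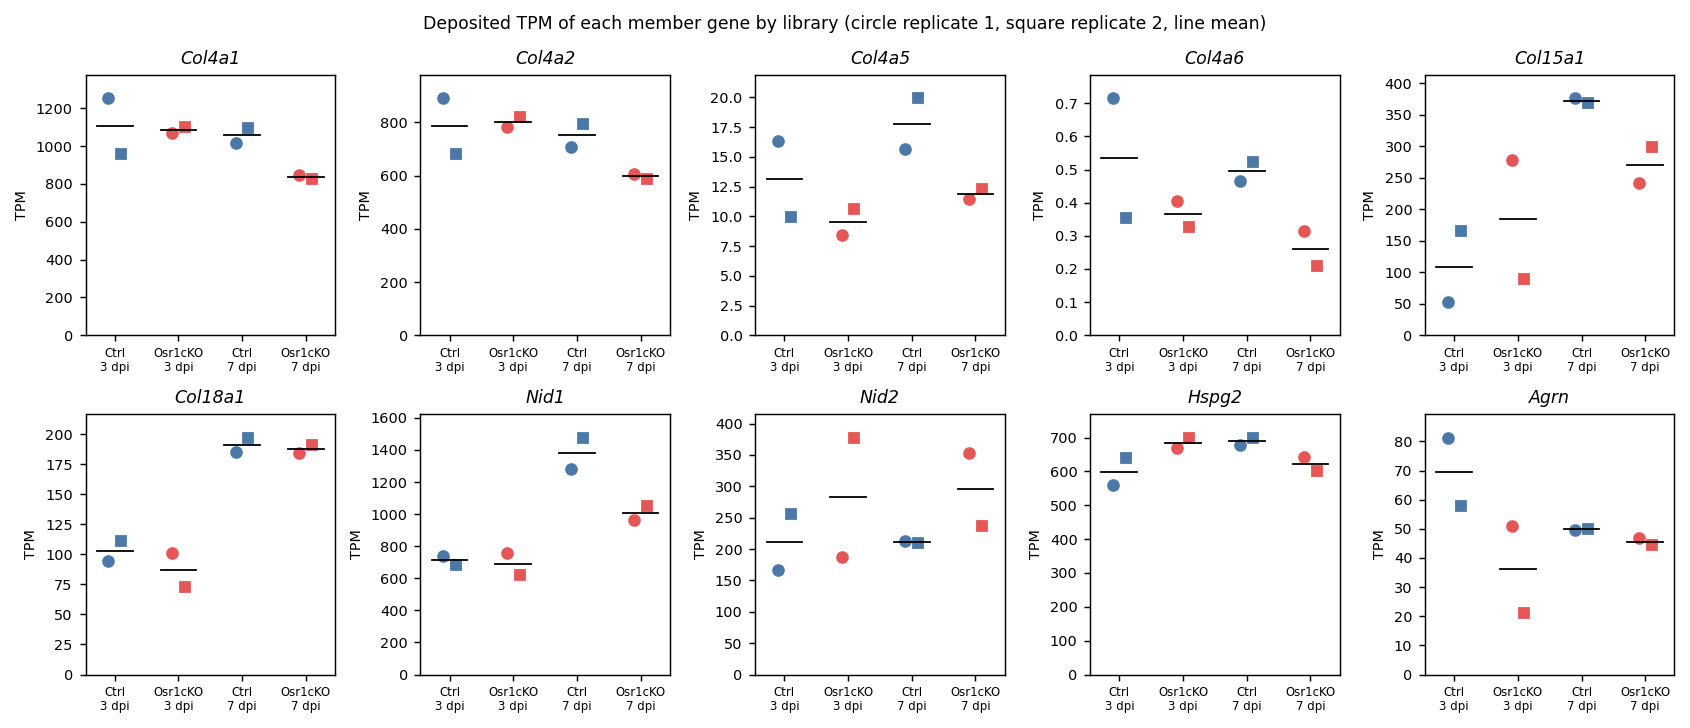
Deposited TPM of the 10 genes in each of the 8 libraries, on linear axes from 0 that differ between panels, with controls in blue, Osr1cKO in red, and the line at the mean of the 2 libraries. At 7 dpi the Osr1cKO libraries lie below both controls in 8 panels, above both for Nid2 and among them for Col18a1, while at 3 dpi the genotypes overlap for 8 genes.

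At 7 dpi most of these genes were lower in Osr1cKO FAPs. Of the 10 members, 6 were lower and 0 higher by an unadjusted p under 0.05 in limma with a fold over 1.2, namely Col4a1, Col4a2, Col4a5, Col15a1, Nid1 and Hspg2, against 5.83% of all 16578 genes tested that were lower by the same rule and 5.3% that were higher. After Benjamini-Hochberg adjustment over all genes none of the 10 had an adjusted p under 0.1, the threshold for this day, which 11 genes or 0.0664% passed, 0.0181% higher and 0.0483% lower. The median log2 fold change of the members was -0.37, and that of all genes tested was 0.01. In deposited TPM both Osr1cKO libraries lay below both controls for 8 members, which was so for 10.7% of all genes, and above both for 1, which was so for 42.8% (53.5% in either direction). From these samples the study had itself reported matrix genes of the muscle fibre basal lamina as lower in Osr1cKO at 7 dpi. The direction of the list is therefore no independent evidence. In bulk RNA, fewer cells that express a gene and less RNA per cell cannot be told apart.

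Col4a1 was at 1016 and 1096 TPM in the 7 dpi controls and at 849 and 825 TPM in Osr1cKO. Both Osr1cKO libraries lay below both controls, and the fitted difference was -0.46 on the log2(TPM + 1) scale (SE 0.10, limma unadjusted p = 0.0044, adjusted p = 0.262). Col4a2 was at 710 and 793 TPM in controls and at 606 and 588 TPM in Osr1cKO. Its groups did not overlap either, and its difference was -0.46 (SE 0.10, limma unadjusted p = 0.0043, adjusted p = 0.260). Mean levels of the 2 chain genes in controls were 1056 ± 57 and 751 ± 59 TPM (SD, n = 2), and in Osr1cKO 837 ± 17 and 597 ± 13 TPM (SD, n = 2).

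Col4a5 and Col4a6 encode the α5 and α6 chains, which join other trimers than α1 and α2. The genes are a second head to head pair, on the X chromosome at X:141475385-141689234 and X:141165403-141474076. Their RefSeq starts, 141475419 and 141474076, are 1343 bp apart. Col4a5 was at 15.7 and 19.9 TPM in the 7 dpi controls and at 11.5 and 12.3 TPM in Osr1cKO. Its log2 difference of -0.66 (SE 0.14, limma unadjusted p = 0.0038, adjusted p = 0.25) was the most negative among the members on this scale, on which a low gene such as Col4a6 is understated. Col4a6 was at 0.465 and 0.523 TPM in controls and at 0.313 and 0.209 TPM in Osr1cKO, where 24 and 16 fragments stood behind the values. The groups did not overlap, but the log2 difference of -0.28 (SE 0.12) had a limma unadjusted p of 0.061. It was -0.83 with a pseudocount of 0.1 TPM and -1.07 with limma-voom, which called Col4a6 lower (unadjusted p = 0.024). Both genes lie on the X chromosome, and the part of the sex makeup of the 7 dpi pools in their levels was not tested.

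Col15a1 and Col18a1 encode the multiplexins, collagens with interrupted triple helices that carry glycosaminoglycan chains. Col15a1 was at 376 and 368 TPM in the 7 dpi controls and at 241 and 298 TPM in Osr1cKO. The log2 difference was -0.60 (SE 0.10, limma unadjusted p = 0.0016, adjusted p = 0.222), which had the smallest p of the 10 genes. Col18a1, whose product is the precursor of endostatin, was at 185 and 197 TPM in controls and at 184 and 191 TPM in Osr1cKO. Here the genotypes overlapped, and the log2 difference was -0.16 (SE 0.07, limma unadjusted p = 0.071).

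The nidogens are glycoproteins that bind both laminin and type IV collagen. Nid1 was at 1283 and 1477 TPM in the 7 dpi controls, the highest levels of any member in any library, and at 963 and 1051 TPM in Osr1cKO. Its log2 difference was -0.58 (SE 0.11, limma unadjusted p = 0.0029, adjusted p = 0.244). Nid2 was at 213 and 210 TPM in controls and at 353 and 237 TPM in Osr1cKO. Nid2 was the only member whose Osr1cKO libraries both lay above the controls, yet they were 1.49-fold apart from each other and the log2 difference of 0.32 (SE 0.20) had a limma unadjusted p of 0.168. Without Osr1cKO replicate 1 it was -0.0042, and without replicate 2 it was 0.63. The ratio of Nid1 to Nid2 was 6.02 and 7.02 in controls and 2.73 and 4.43 in Osr1cKO, without overlap. Exons of Rtraf, which is read from the opposite strand at 134 to 186 TPM, cover 8.45% of the Nid2 exons, and the use of strand in counting was not given in the sources used here, so the level of Nid2 is uncertain to that extent.

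Perlecan and agrin are large proteins with heparan sulfate chains, of which agrin also binds dystroglycan and organises the neuromuscular junction. Hspg2 was at 678 and 700.1 TPM in the 7 dpi controls and at 643 and 601 TPM in Osr1cKO. Its log2 difference was -0.28 (SE 0.09, limma unadjusted p = 0.029, adjusted p = 0.348), and the unadjusted rule no longer called it when any of 3 libraries (either control or Osr1cKO replicate 2) was left out. Agrn was at 49.8 and 49.8 TPM in controls and at 46.8 and 44.4 TPM in Osr1cKO. The log2 difference of -0.25 (SE 0.08, limma unadjusted p = 0.024) stayed under the fold of 1.2.

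**Figure D3:**
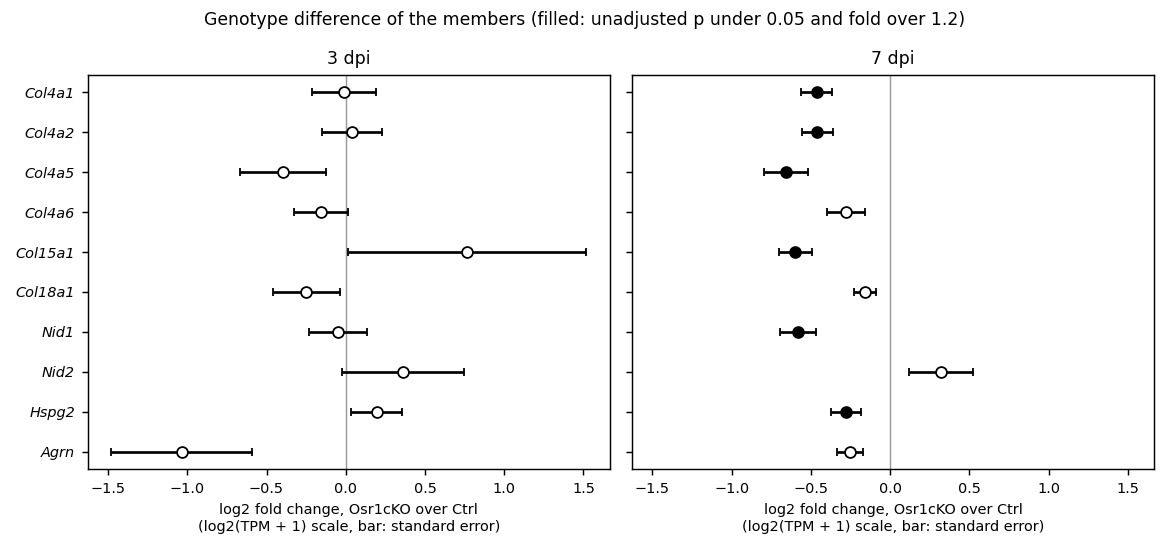
Log2 fold change of Osr1cKO over Ctrl on the log2(TPM + 1) scale for each member at 3 and 7 dpi, with bars of 1 standard error from limma and filled points for an unadjusted p under 0.05 with a fold over 1.2. At 7 dpi 6 points are filled, all below 0, and Nid2 at 0.32 is the only point above 0, whereas at 3 dpi 0 points are filled.

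Some alternatives bear on the 7 dpi count. Without scaling between libraries 5 members were lower, all but Hspg2, while over all genes 2282 were then higher and 468 lower by the unadjusted rule, against 878 and 966 with scaling, and the median of all genes moved from 0.01 to 0.11. With the fit over all 8 libraries 4 members (Col4a1, Col4a2, Col4a5 and Nid1) were lower, against 3.43% of all genes. Over the 4 fits without 1 library the log2 difference ran from -0.52 to -0.42 for Col4a1 and from -0.53 to -0.39 for Col4a2. It ran from -0.82 to -0.50 for Col4a5, -0.73 to -0.49 for Col15a1 and -0.68 to -0.49 for Nid1. For Hspg2 it ran from -0.36 to -0.20, for Agrn from -0.32 to -0.19 and for Nid2 from -0.0042 to 0.63. With limma-voom on recovered fragments 3 members (Col4a5, Col15a1 and Nid1) passed the adjusted threshold, as did 77 genes higher and 122 lower among all genes.

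Markers of other cells also differed at 7 dpi by the unadjusted rule, by which 5.83% of all genes were lower and 5.3% higher. Of 9 myofibre genes tested, 6 were lower in Osr1cKO, and the list summed to between 74.2 and 86.1 TPM in controls against 49.8 and 49.9 TPM. Of 6 tenocyte genes tested, 4 were higher, with sums of 2417 to 2664 TPM in controls and 3177 to 3616 TPM in Osr1cKO. Thbs4 alone made 2153 and 2295 TPM of these sums in controls and 2587 and 2868 TPM in Osr1cKO. Of 12 endothelial genes 2 were higher and of 8 mural cell genes 1 was lower. Cdh5 was at 2.32 and 2.13 TPM in controls and at 4.16 and 3.74 TPM in Osr1cKO. Endothelial sums, in which Tek made 36.3 to 58.4 TPM, overlapped at 56.4 to 70.5 TPM in controls and 58.7 to 83.3 TPM in Osr1cKO, as did mural cell sums, at 175 to 253 TPM and 171 to 226 TPM. Of the mural cell sums Ndufa4l2 made 81.8 to 107 TPM. The mural cell marker Rgs5 was at 63.6 and 12.3 TPM in controls and at 27.6 and 50.8 TPM in Osr1cKO. Myogenic genes summed to 8.69 TPM in 1 control library and 39.0 TPM in the other. The part of these lists, and of sex, in the members' levels was not tested.

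At 3 dpi none of the 10 members differed between genotypes by the rule for that day, an unadjusted p under 0.05 with a fold over 1.2. By that rule 377 genes were higher and 608 lower, which is 2.4% and 3.87% and together 6.27% of 15699 tested, and in limma 0 genes had an adjusted p under 0.1, with 985 at an unadjusted p under 0.05 and 0 at an adjusted p under 0.1 in limma-voom. The members' median log2 fold change was -0.03, against 0.01 over all genes. The genotypes overlapped for 8 members. For Hspg2 both Osr1cKO libraries lay above the controls and for Agrn both lay below, while of all genes 18.2% lay above, 18% below and 36.2% in either direction.

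The main collagen chains and Nid1 had small fitted differences at 3 dpi. Col4a1 was at 1253 and 957 TPM in controls and at 1070 and 1101 TPM in Osr1cKO, a log2 difference of -0.01 (SE 0.20). Col4a2 was at 891 and 683 TPM in controls and at 782 and 819 TPM in Osr1cKO, a log2 difference of 0.04 (SE 0.19). For both genes the 2 controls lay on either side of the Osr1cKO libraries, 1.31-fold apart. Nid1 was at 738 and 685 TPM in controls and at 757 and 622 TPM in Osr1cKO, a log2 difference of -0.05 (SE 0.18), and the Osr1cKO libraries enclosed the controls.

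Other members varied more between libraries of 1 genotype than between genotypes at 3 dpi. Col15a1 was at 52.0 and 165 TPM in controls and at 278 and 89.8 TPM in Osr1cKO, so that libraries of the same genotype differed 3.17-fold and 3.09-fold. Its log2 difference of 0.77 had an SE of 0.75. Nid2 was at 167 and 256 TPM in controls and at 187 and 378 TPM in Osr1cKO, a log2 difference of 0.36 (SE 0.38). For neither gene could a difference be told from the spread of these libraries.

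Agrn had the most negative value of the members at 3 dpi. It was at 81.3 and 57.9 TPM in controls and at 51.0 and 21.1 TPM in Osr1cKO, and its log2 difference was -1.03 (SE 0.44, limma unadjusted p = 0.067, adjusted p = 0.811). The Osr1cKO libraries were 2.41-fold apart, and without Osr1cKO replicate 1 the difference was -1.68 and passed the rule. Agrn also passed in the fit of all 8 libraries, at -0.995, and with the replicate block, at -1.03. Hspg2 was at 560 and 639 TPM in controls and at 669 and 700 TPM in Osr1cKO, a log2 difference of 0.20 (SE 0.16, limma unadjusted p = 0.277).

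The remaining members overlapped between genotypes at 3 dpi. Col4a5 was at 16.4 and 9.97 TPM in controls and at 8.43 and 10.6 TPM in Osr1cKO, a log2 difference of -0.40 (SE 0.27) that became -0.73 and passed the rule without control replicate 2. Col4a6 was at 0.715 and 0.355 TPM in controls and at 0.406 and 0.326 TPM in Osr1cKO, a log2 difference of -0.16 (SE 0.17). Col18a1 was at 94.1 and 111 TPM in controls and at 101 and 73.2 TPM in Osr1cKO, a log2 difference of -0.25 (SE 0.21). At this day 2 of 6 tenocyte genes were higher in Osr1cKO, against 2.4% of all genes. The list summed to 578 to 815 TPM in controls and 1599 to 1831 TPM in Osr1cKO. Thbs4 alone made 517 and 766 TPM of these sums in controls and 1747 and 1552 TPM in Osr1cKO. The part of the tenocyte list in the members' levels was not tested.

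Whether the genotype difference itself changed between days was tested as an interaction over the 8 libraries. None of the 10 members had an adjusted p under 0.05, and 0 of 17371 genes did, with 1208 or 6.95% at an unadjusted p under 0.05 and 0 at the adjusted one in limma-voom. At that unadjusted p were 3 members, Col4a2 with an interaction of -0.54 (SE 0.21), Nid1 with -0.58 (SE 0.22) and Hspg2 with -0.52 (SE 0.20) on the log2 scale. Each of these was more negative at 7 dpi than at 3 dpi. The value for Col4a1 was -0.50 (SE 0.22, limma unadjusted p = 0.054). Col15a1 had the most negative interaction, -1.41, with an SE of 0.91.

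From 3 to 7 dpi the share of members called was below that of all genes in both genotypes. In controls 3 members rose and 0 fell at an adjusted p under 0.05 with a fold over 1.2, against 45.3% of all genes tested that did one or the other, 21.2% higher and 24.1% lower. Col15a1 rose by 2.07 on the log2 scale (SE 0.64, limma adjusted p = 0.034), Col18a1 by 0.97 (SE 0.18, limma adjusted p = 0.0044) and Nid1 by 1.03 (SE 0.16, limma adjusted p = 0.0022). In Osr1cKO 1 member rose and 2 fell, against a background of 40.9%, 17.3% higher and 23.6% lower. Col18a1 rose by 1.01 (SE 0.18, limma adjusted p = 0.0044), while Col4a1 fell by 0.48 (SE 0.15, limma adjusted p = 0.042) and Col4a2 by 0.53 (SE 0.15, limma adjusted p = 0.025). The falls of Col4a1 and Col4a2 were not called when any 1 of the 4 Osr1cKO libraries was left out, or without scaling between libraries. The rise of Col15a1 in controls was 1.2 without 3 dpi replicate 1, and it was called in none of the fits without that library or without either 7 dpi control.

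The same genes had other values in the other genotype. In controls the day difference was 0.02 (SE 0.15) for Col4a1 and 0.02 (SE 0.15) for Col4a2. In Osr1cKO Nid1 had a day difference of 0.45 (SE 0.16, limma adjusted p = 0.057) and Col15a1 of 0.65 (SE 0.64). Nid1 passed the threshold in Osr1cKO, at 0.45 to 0.55, without scaling, with median-of-ratios scaling, with the filter on mean TPM, with both limma-voom fits and with robust variances. It did not pass with no filter, at 0.39. When each Osr1cKO library was left out in turn, the day difference of Nid1 ran from 0.29 to 0.60. Col18a1, near 0.97 in controls and 1.01 in Osr1cKO, had an interaction of 0.04 (SE 0.25). Hspg2 differed between days by 0.28 (SE 0.14) in controls and -0.24 (SE 0.14) in Osr1cKO, neither of which was called. Day went with the number of mice in a library and with Y-linked expression, and these cannot be told apart. The study's methods also name a second sequencer and read length without tying them to libraries, and their part was not tested.

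Other basement membrane genes gave a background for the members. Of 64 such genes, 62 were tested at 7 dpi, and 11 were lower and 4 higher by the unadjusted rule. Over all genes tested 5.83% were lower and 5.3% higher by that rule, and these shares apply to each list at 7 dpi below. The 62 genes had a median log2 fold change of -0.10, and at an adjusted p under 0.1 were 0 of them in limma and 3 in limma-voom. The remaining type IV chain genes Col4a3 and Col4a4, named after their values were seen, were both lower. Col4a3 was at 1.72 and 1.5 TPM in controls and 0.960 and 0.929 TPM in Osr1cKO, a log2 difference of -0.50 (SE 0.14), and Col4a4 differed by -0.63 (SE 0.17), each with a limma adjusted p of 0.305.

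Laminin chains, the other network formers, had a median of -0.16 over 11 genes at 7 dpi, with 3 lower and 0 higher. Lama2, the α2 chain of the muscle fibre basement membrane, was at 122 and 139 TPM in controls and 81.5 and 96.3 TPM in Osr1cKO, a log2 difference of -0.68 (SE 0.10, limma unadjusted p = 0.00075, adjusted p = 0.215). Among 17 tested genes for basement membrane associated proteins 4 were lower and 0 higher. These included hemicentin-2 (Hmcn2), at -0.58 (SE 0.11), and Vwa1, whose product binds perlecan, at -0.48 (SE 0.10).

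Of 11 genes for the folding and crosslinking of type IV collagen 2 were higher and 0 lower at 7 dpi, and their median was 0.13. Loxl2, a lysyl oxidase, was at 481 and 440 TPM in controls and 641 and 668 TPM in Osr1cKO, a log2 difference of 0.38 (SE 0.09, limma unadjusted p = 0.0070, adjusted p = 0.277). Neither the peroxidasin gene Pxdn (0.10, SE 0.08), nor Serpinh1 for the collagen chaperone HSP47 (-0.02, SE 0.17), nor the collagen-binding Sparc (-0.12, SE 0.24) passed the rule, and the last 2 turned above 0 without scaling. Among 9 proteases and inhibitors 2 were higher and 1 lower, with Timp1, an inhibitor of metalloproteinases, at 0.67 (SE 0.20) and the gelatinase gene Mmp9 at 0.46 (SE 0.15). Of 12 receptor genes 1 was lower and 0 were higher, and their median was 0.01.

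At 3 dpi 61 of these other genes were tested, and 1 was higher and 2 lower, against 2.4% and 3.87% of all genes. The lysyl hydroxylase gene Plod2 was higher by 0.73 (SE 0.22, limma unadjusted p = 0.022) on the log2 scale. Lama3 differed by -0.54 (SE 0.17) and the laminin receptor gene Bcam by -0.59 (SE 0.18), both at levels of no more than 2.02 TPM at this day. These calls were lost without either Osr1cKO library, and those of Lama3 and Bcam also without control replicate 1. Lama3 was further not called with the filter on mean TPM, with no filter and with the replicate block. Loxl2 had a log2 difference of 0.95 (SE 0.48, limma unadjusted p = 0.104), Pxdn of 0.31 (SE 0.30), Serpinh1 of 0.29 (SE 0.42) and Sparc of 0.16 (SE 0.39), none of which passed. The median over the 61 genes was 0.00.

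**Figure D4:**
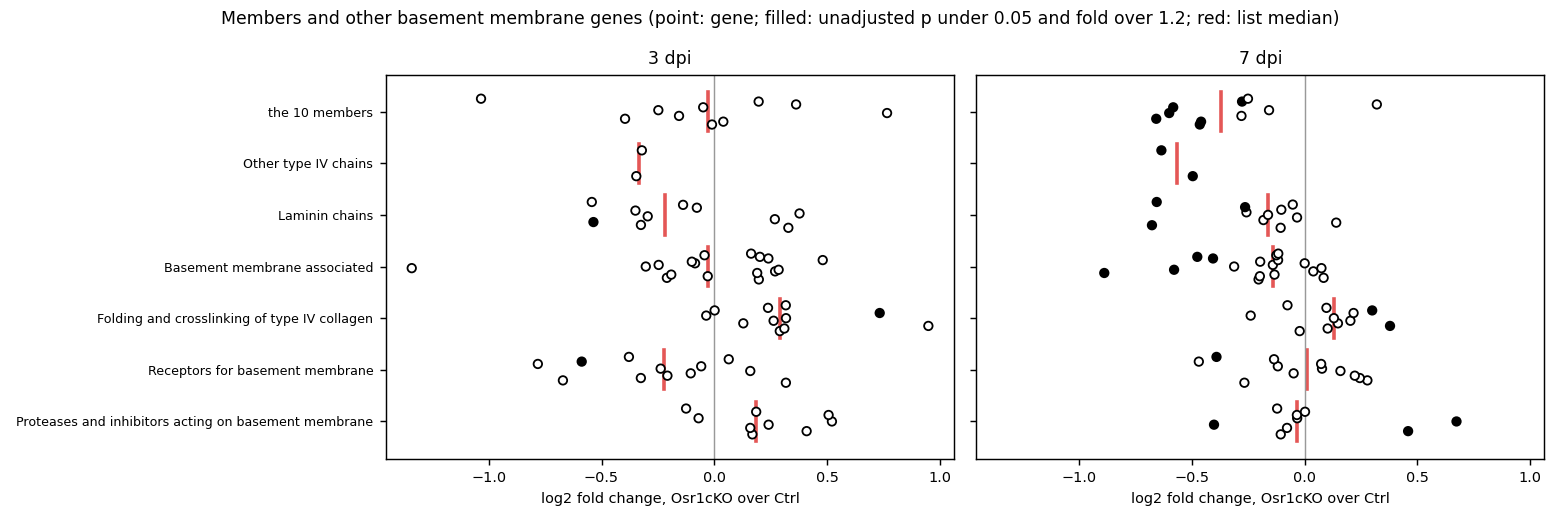
Log2 fold change of Osr1cKO over Ctrl for the 10 members and the other basement membrane genes by list at 3 and 7 dpi, 1 point per gene, filled for an unadjusted p under 0.05 with a fold over 1.2, and a red line at each list's median. At 7 dpi the members' median lies at -0.37 and that of the folding and crosslinking genes at 0.13.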

How the data were processed

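Per the labels and the study's methods, poly(A) RNA of sorted GFP+ FAPs was made into stranded libraries and mapped to mm10 with STAR. The authors deposited 1 table per library of gene-level TPM. The program, annotation and strand setting used for counting were not given in the sources used here. Of 55385 entries per table, 109 further entries of repeated symbols were left out. With GENCODE release 21 exon lengths, 98.7% to 98.9% of values under 50 fragments came within 0.02 of whole fragments.

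A gene was kept if 2 or more libraries reached 10 recovered fragments and the total reached 15 (without a length, if its mean TPM was 1 or more). Testing used limma 3.58.1 in R 4.3.3 with a mean-variance trend on log2(TPM + 1), after scaling by a trimmed mean of log ratios (trim 0.3), and Benjamini-Hochberg adjustment. A fold change on this scale understates low genes. Genotypes were compared within each day, and days and the interaction over 8 libraries. The code was run on simulated counts in which every gene had the same added spread between libraries. That run checked the code and not the error rate in these data. With 2 libraries per group, p-values rest on the spread between these libraries and, through the mean-variance trend, on that of other genes. For days and the interaction the spread was taken over all 8 libraries. At the later day each library was a pool of mice, so its spread is not that between single mice.

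Members and lists were chosen with earlier results of these data known. Named in addition were, from the other basement membrane lists, up to 3 genes of smallest p per direction and comparison, plus Loxl2, Pxdn, Serpinh1 and Sparc. Marker lists covered FAPs, endothelial, mural, glial, myogenic, myofibre, macrophage, tenocyte and sex-linked genes. Glial sums were 5.82 to 20.4 TPM and macrophage sums 11.8 to 74.5 TPM. Alternatives were pseudocount, scaling, filter, limma-voom, robust variances, pooling of days, a replicate block and leaving out each library.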

Additional observations from a re-analysis of the deposited data

Results flagged for a closer look

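The difference in genotype effect between 7 and 3 dpi was past an unadjusted p of 0.05 for 3 members. It was -0.54 for Col4a2 (limma unadjusted p = 0.032, adjusted p = 0.708), -0.58 for Nid1 (limma unadjusted p = 0.034, adjusted p = 0.710) and -0.52 for Hspg2 (limma unadjusted p = 0.031, adjusted p = 0.707) on the log2 scale. All 3 fail the adjustment over 17371 genes, of which 6.95% were past the same unadjusted p.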

How the results depend on the processing

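The genotype comparisons rest on 2 libraries per group, and the sex of the pooled mice followed genotype at 7 dpi. The cause of a change between settings was not tested. At 3 dpi genes called higher numbered 593 with no filter and 928 in the fit of all 8 libraries, and 0 higher and 0 lower genes passed an adjusted p of 0.1. Members lower numbered 1 (Agrn) in the fit of all 8 libraries and 1 (Agrn) with the replicate block, and with crossed numbers in that block, tried after seeing the data, 1 member (Col15a1) was higher. The replicate numbers did not pair libraries, with correlations of deviations from group means of -0.13 at 3 dpi and 0.06 at 7 dpi. Col4a1 turned to 0.0036 with no filter and to 0.029 in the fit of all 8 libraries.

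At 7 dpi, against 3 genes higher and 8 lower at an adjusted p under 0.1, there were 0 and 0 without scaling, with the filter on mean TPM, with no filter and in the fit of all 8 libraries. There were 77 and 122 with limma-voom, 109 and 202 with robust limma-voom (chosen after seeing the data), and 13 and 14 with the replicate block, which called 0 members. By the unadjusted rule there were 878 and 966. Members lower numbered 3 with limma-voom, 5 with robust limma-voom and 6 by the unadjusted rule. The members' median was -0.46 with a pseudocount of 0.1 TPM, -0.29 without scaling and -0.47 with both limma-voom fits. It was -0.46 with the filter on mean TPM, which leaves out Col4a6. In the main fit the median of -0.37 lay between the values of Col4a2 (-0.46) and Col4a6 (-0.28). Without scaling Serpinh1 turned to 0.11 and Sparc to 0.013.

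For the interaction 3 genes were called with a pseudocount of 0.1 TPM, 1 with the filter on mean TPM and 30 with no filter, and Nid2 turned to 0.090 without scaling. In controls the day difference of Col4a1 and Col4a2 turned to -0.053 and -0.056 without scaling, -0.083 and -0.087 with no filter, and -0.025 and -0.029 with both limma-voom fits, and that of Col4a6 to 0.027 with a pseudocount of 0.1 TPM, 0.0042 with median-of-ratios scaling and 0.00083 with both limma-voom fits. In Osr1cKO members higher between days numbered 2 (Col18a1 and Nid1) without scaling, with median-of-ratios scaling, with the filter on mean TPM, with both limma-voom fits and with robust variances. Members lower there numbered 0 without scaling and 1 with median-of-ratios scaling, with the filter on mean TPM and with no filter. With no filter 1980 genes were higher there and Nid2 turned to -0.037.

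Leaving out each library in turn gave the following ranges of counts or log2 values. They were, for the genotypes at 3 dpi, genes called higher from 152 to 1121, genes called lower from 211 to 1683, Col4a1 from -0.21 to 0.17, Col4a6 from -0.33 to 0.0086, Col15a1 from -0.072 to 1.60, Pxdn from -0.075 to 0.68, Serpinh1 from -0.10 to 0.67, Sparc from -0.043 to 0.35, members called lower from 0 to 1, the members' median from -0.14 to -0.00069, Col4a2 from -0.15 to 0.22, Col18a1 from -0.50 to 0.0041, Nid1 from -0.22 to 0.12 and Nid2 from -0.12 to 0.84. They were, for the genotypes at 7 dpi, genes called higher from 1 to 241, genes called lower from 6 to 227, members called lower from 0 to 3, Serpinh1 from -0.15 to 0.11, the members' median from -0.42 to -0.31 and Nid2 from -0.0042 to 0.63. They were, for the interaction, genes called from 0 to 71, Nid2 from -0.58 to 0.40, Col4a6 from -0.29 to 0.018 and Col18a1 from -0.20 to 0.29. They were, for the days in controls, Col4a6 from -0.16 to 0.15, Nid2 from -0.24 to 0.45, Col4a1 from -0.13 to 0.17, Col4a2 from -0.13 to 0.17, genes called higher from 2104 to 3735 and genes called lower from 2570 to 4456. They were, for the days in Osr1cKO, genes called higher from 1612 to 1870, members called higher from 1 to 3, members called lower from 0 to 0, Nid2 from -0.47 to 0.51, Col15a1 from -0.17 to 1.48, Agrn from -0.28 to 0.99 and genes called lower from 2240 to 3063.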
